A study of Mus musculus with 31 samples.

Results

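Mammary glands of 8 lactating mice fed a folic acid (FA) supplemented diet were compared with those of 8 mice fed a breeder diet, all injected with saline. The members were taken by their labels for diet and drug, and these 16 drug-free libraries are 16 of the 31 in the study. The other 15 came from dams given the antidepressant fluoxetine and enter only 1 of the alternatives below. The study asked how this drug and FA act on the gland at peak lactation. Dams of both groups were C57BL/6J mice, bred from 6 weeks of age. The group breeder diet + saline ate 4 mg/kg FA and the group FA diet + saline 24 mg/kg, from 2 weeks before mating on. Every dam was injected into the peritoneum each day from embryonic day 13 to lactation day 10, when the gland was collected. RNA with a poly-A tail was captured from the whole gland of each dam as 1 library and read in pairs of 150 bases on a NovaSeq instrument.

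Folate carries single carbon units. Cells use them to make thymidylate and purines and to turn homocysteine into methionine, from which S-adenosylmethionine, the methyl donor for DNA, histones and lipids, is made. The mammary gland also delivers folate to the milk, and folate receptor alpha, encoded by *Folr1*, binds it at the surface of epithelial cells.

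Total counts ran from 15412542 to 23848706 per dam on the breeder diet and from 17279592 to 27165214 on the FA diet (exact permutation test, two-sided, p = 0.311, adjusted p = 0.311 over 2 measures). A few milk transcripts took most of them. The whey protein *Wap* held 18.8% of all counts, and the caseins *Csn2*, *Csn1s1* and *Csn1s2a* held 15.6%, 12.6% and 10.3%. The 20 most abundant genes took 76.5% ± 1.54 (SD, n = 8) of the counts on the breeder diet and 78.3% ± 3.55 (SD, n = 8) on the FA diet, a difference of 1.79 points (exact permutation test, two-sided, p = 0.221, adjusted p = 0.311). These 20 genes include the ribosomal RNA *Rn18s-rs5* and pseudogenes that copy mitochondrial genes. With *Rn18s-rs5* left out of all counts, a choice made after seeing the data, the difference was 1.34 points (exact permutation test, p = 0.357). FA dam 3 had the lowest share of the 20 most abundant genes, 70.1%. Without it the difference was 2.96 points (exact permutation test, p = 0.00124), where leaving out any other dam gave p from 0.190 to 0.393 in the same test. That dam is singled out by the measure itself, so the small p is not read as a result.

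Several libraries stood apart. FA dam 11 had 184787 CPM of *Rn18s-rs5*, or 14.1% of its counts (CPM is the read count scaled to library size, with edgeR's TMM factors). FA dams 2 and 5 had 24148 and 18743 CPM, the other 5 FA dams 3469 to 7661 and the breeder dams 2415 to 8860. FA dam 11 was also the highest of the 16 in summed CPM of oxidative phosphorylation, ribosomal protein and fibroblast genes. The part of ribosomal RNA in those values was not tested. Without FA dam 11, 0 genes were called by the test described below, with 512 higher and 572 lower at an unadjusted p of 0.05 or below. FA dam 3 had the least milk protein RNA, 474792 CPM in sum over 15 genes, where the other FA dams had 665280 to 908261. FA dam 5 had more RNA of histone methylation enzymes, 602 CPM in sum, than the other FA dams, whose highest sum was 563. Skeletal muscle markers, with the myosin *Myh4* as the most abundant, summed to 5069 CPM in FA dam 4, 2737 in FA dam 10, 2403 in FA dam 12 and 2617 in breeder dam 11, but to 8.55 in FA dam 5 and 14.6 in FA dam 11. Their medians were 449 CPM on the breeder diet and 179 on the FA diet, 14 of 15 markers passed the filter on low counts, and none of the 14 reached an unadjusted p of 0.05. Their median log2 fold change was 0.69, and 0.01 without FA dam 4. Without the 4 muscle-rich libraries, FA dams 4, 10 and 12 and breeder dam 11, which were chosen on these same markers, the median was -2.54 and 12 were lower at an unadjusted p of 0.05 or below. Breeder dams 10, 11 and 12 had lower values for short genes than the other 13 dams, as described with gene length. On the first principal component, with 18.3% of the variance, FA dams ran from -45.2 to 46.1, on both sides of the breeder dams.

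The tissue was checked against markers of its cell types. All 10 luminal epithelial and all 10 myoepithelial markers passed the filter, as did all 12 adipocyte, 12 endothelial, 16 fibroblast and 16 macrophage and MHC class II markers. Only 1 of 14 T and NK cell markers, 2 of 12 neutrophil markers and 2 of 11 skin and hair markers did. Luminal markers, led by the transcription factor *Elf5*, summed to 843, 950 and 1129 CPM (lowest, median and highest dam) on the breeder diet and to a median of 975 on the FA diet.

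No gene passed the threshold for diet. By the quasi-likelihood test of edgeR, adjusted by Benjamini-Hochberg, 0 of 12913 genes tested (0%) had an adjusted p of 0.1 or below, and the smallest was 0.186, shared by 22 genes. Before adjustment, 704 genes (5.45%) were higher on the FA diet and 650 (5.03%) lower at a p of 0.05 or below, and 348 (2.69%) differed at 0.01 or below, 192 higher and 156 lower. If genes were independent, chance alone would give 323 in each direction at 0.05. The likelihood ratio test of edgeR called 28 genes (0.217%), 9 higher and 19 lower. DESeq2 called 123 of the 8216 genes it gave an adjusted p (1.5%), 68 higher and 55 lower, and 26 of the 28 were among them. Without FA dam 5, the quasi-likelihood test itself called 84 genes, 28 higher and 56 lower, and without breeder dam 6 it called *Fcamr* and *Lrat*. All gene groups below are read against these shares. The shares were 3.69% higher and 3.55% lower without the 4 muscle-rich libraries, and 2.29% and 2.4% without breeder dams 10, 11 and 12. The median log2 fold change of all genes was -0.00, and the 95% confidence interval lay within 1 log2 unit on both sides of 0 for 10641 genes (82.4%).

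The 12 named genes of smallest p that were higher on the FA diet had varied roles. *Rab25* (ENSMUSG00000008601, chromosome 3 from 88449335 to 88455618 of GRCm39), a small GTPase of recycling endosomes in epithelia, lay at 11.7, 13.9 and 15.9 CPM (lowest, median, highest) on the breeder diet and at 16.9, 20.2 and 24.0 on the FA diet. All 8 FA dams lay above all 8 breeder dams, and the log2 fold change was 0.52 ± 0.10 (SE, adjusted p = 0.186). *Ndufs8* (ENSMUSG00000059734, chromosome 19 from 3958862 to 3962948), a subunit of respiratory complex I, lay at 18.2, 21.7 and 24.3 CPM against 24.1, 29.5 and 32.6. Of the FA dams, 7 lay above the highest breeder dam, with a log2 fold change of 0.45 ± 0.10 (SE, adjusted p = 0.186). The chaperone *Hspa8* lay at 99.6, 137 and 200 CPM against 152, 207 and 305, a log2 fold change of 0.63 ± 0.15 (SE, adjusted p = 0.186). Its groups overlapped, with 4 FA dams above the highest breeder dam.

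*Lrat*, which esterifies retinol for storage, lay at 10.6, 16.3 and 28.3 CPM against 22.6, 26.4 and 50.2, a log2 fold change of 0.80 ± 0.19 (SE, adjusted p = 0.190). Its groups overlapped through breeder dam 6, the highest of its diet, and FA dam 3 was the highest of all. The other higher genes of smallest p ran from 0.39 for *Cyb5r3*, a reductase of cytochrome b5, to 0.74 for *Aimp2*, a scaffold of the tRNA synthetase complex. Among them were *Timm8b*, a chaperone of the mitochondrial intermembrane space (0.46), *Sar1b*, a GTPase of vesicles that leave the endoplasmic reticulum (0.46), *Galnt10*, which starts O-linked glycans (0.62), and *Erp44*, which retains secretory proteins (0.43). *Fabp3-ps1*, also called by DESeq2, is a copy of *Fabp3*, and reads of the 2 may not be told apart.

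Lower genes of smallest p included enzymes that methylate histones. *Setd7* (ENSMUSG00000037111, chromosome 3 from 51422740 to 51468300), a lysine methyltransferase, lay at 23.4, 33.1 and 41.6 CPM on the breeder diet and at 20.7, 23.8 and 25.2 on the FA diet, a log2 fold change of -0.50 ± 0.11 (SE, adjusted p = 0.186). The groups overlapped, with 4 FA dams below the lowest breeder dam. *Setd1b* (ENSMUSG00000038384, chromosome 5 from 123280256 to 123306692), which methylates histone H3, lay at 9.43, 13.6 and 17.3 CPM against 7.97, 9.0 and 10.5, a log2 fold change of -0.58 ± 0.13 (SE, adjusted p = 0.186). Here 7 FA dams lay below the lowest breeder dam.

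*Fcamr* (ENSMUSG00000026415, chromosome 1 from 130728639 to 130743067), a receptor for IgA and IgM, had the largest fold change of these lower genes. It lay at 3.33, 10.8 and 14.7 CPM on the breeder diet and at 2.96, 4.18 and 7.25 on the FA diet, a log2 fold change of -1.19 ± 0.25 (SE, adjusted p = 0.186). The groups overlapped through FA dam 5, the highest of its diet, and breeder dam 6, the lowest of its own. *Mpzl1*, a surface glycoprotein that binds the phosphatase SHP2, lay at 14.5, 17.7 and 24.6 CPM against 10.5, 12.1 and 15.5, with 6 FA dams below the lowest breeder dam (log2 fold change -0.59 ± 0.12, SE). The cadherin *Celsr2* (-0.75), the ERK phosphatase *Dusp7* (-0.65), the adhesion molecule *Nectin4* (-0.60) and *Ubn2*, which takes part in placing histone H3 variants (-0.58), were lower as well. All 24 genes of smallest p were called by DESeq2, 20 by the likelihood ratio test and 23 without FA dam 5. They were chosen by p on these same counts, so this overlap is not a separate check.

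**Figure D1:**
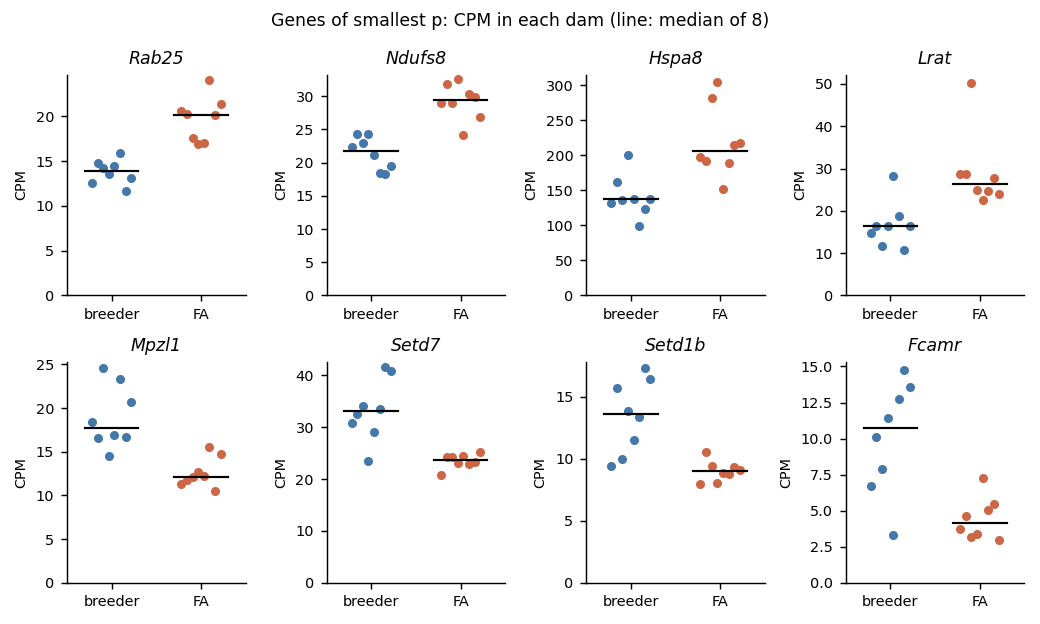
CPM of 8 genes of smallest p, with 1 point for each dam, the 8 breeder dams on the left and the 8 FA dams on the right, and a line at the median of each diet. For *Rab25* the FA dams start at 16.9 CPM, above the highest breeder dam at 15.9, while the diets overlap for the other 7 genes.

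In 9 genes the diets did not overlap. All 8 FA dams were higher in 6 of the genes tested (0.0465%), *Rab25*, *Timm8b*, *Uqcrc1*, *Nop10*, *Dera* and *Suclg1*. *Uqcrc1* is a core subunit of respiratory complex III and lay at 46.4, 53.9 and 61.2 CPM against 61.6, 66.9 and 81.5. *Suclg1* encodes a subunit of succinyl-CoA ligase in the citric acid cycle and lay at 14.7, 18.7 and 21.0 CPM against 21.5, 23.3 and 31.6. All 8 FA dams were lower in 3 genes (0.0232%), *Nectin4*, *Zmym5* and the RNA helicase *Ddx42*. *Ddx42* lay at 17.5, 19.0 and 24.5 CPM against 13.1, 15.1 and 16.7.

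Folate genes leaned up as a list, and none passed the threshold. Of 32 genes of folate uptake and folate-dependent carbon transfer, 27 passed the filter. At an unadjusted p of 0.05 or below 5 were higher and 1 lower, or 18.5% and 3.70% of the 27, where all genes tested had 5.45% and 5.03%. Their median log2 fold change was 0.14, where that of all genes was -0.00, and members ran from -0.29 to 0.71. *Tyms*, thymidylate synthase, lay at 1.26, 1.87 and 2.73 CPM on the breeder diet and at 1.75, 2.72 and 5.48 on the FA diet, a log2 fold change of 0.71 ± 0.23 (SE, adjusted p = 0.321). *Mthfd2*, a mitochondrial dehydrogenase of folate, lay at 0.605, 1.53 and 3.22 CPM against 1.52, 2.25 and 5.50, a log2 fold change of 0.71 ± 0.31 (SE, adjusted p = 0.441). Both genes overlapped between diets, with 4 and 3 FA dams above the highest breeder dam.

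Its relative *Mthfd2l* (0.39), the sarcosine dehydrogenase *Sardh* (0.34) and *Gcsh*, a protein of the glycine cleavage system (0.29), were the other 3 that were higher at that level. *Amt*, another protein of glycine cleavage, was lower (-0.29). *Folr1* was the most abundant of the list at 218, 309 and 380 CPM against 252, 362 and 468. Its log2 fold change was 0.21, with a confidence interval from -0.08 to 0.50, and ran from 0.08 to 0.31 over the alternatives. The diets overlapped for *Folr1*, with 4 FA dams above the highest breeder dam. Below the filter were *Folr2*, the reduced folate carrier *Slc19a1* and *Mthfd1l* with 172, 81 and 106 counts over the 16 libraries, and *Ftcd* and *Dmgdh* with 0. Without breeder dams 10, 11 and 12, 1 folate gene was higher and 1 lower (median 0.08), without breeder dam 10 alone 2 were higher, and without the 4 muscle-rich libraries 3 were higher and 0 lower (median 0.08).

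In the methionine cycle and transsulfuration, 17 of 20 genes passed the filter, with 3 higher (17.6%, all genes 5.45%), 2 lower (11.8%, all genes 5.03%) and a median of 0.04. None was higher without the muscle-rich libraries, and none without breeder dams 10, 11 and 12. *Pemt*, which methylates phosphatidylethanolamine, lay at 1.11, 1.75 and 2.29 CPM against 1.21, 2.01 and 6.76 (log2 fold change 0.73 ± 0.31, SE). FA dam 10 was the highest and the diets overlapped. The log2 fold change was 0.43 without that dam and 0.18 without the 4 muscle-rich libraries, of which it is 1. The cobalamin carrier *Tcn2* (0.37) and *Mmachc*, which processes cobalamin (0.36), were higher. Over the alternatives *Tcn2* ran from 0.23 to 0.44 and *Mmachc* from 0.17 to 0.46. *Ahcyl2*, a relative of S-adenosylhomocysteine hydrolase (-0.54), and *Mat2a*, which makes S-adenosylmethionine outside the liver (-0.22), were lower. *Mat1a* had 1 count and *Bhmt* and *Bhmt2* had 0. With 1 library left out, 1 (without breeder dam 11) to 4 were higher and the median lay between 0.01 and 0.09.

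**Figure D2:**
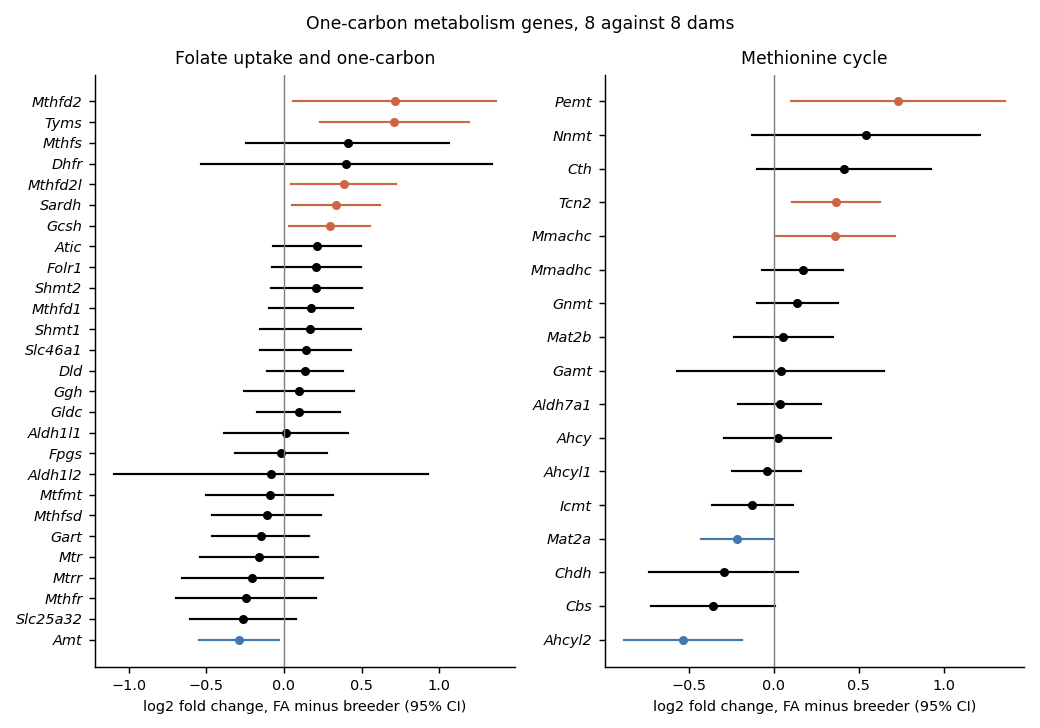
Log2 fold change (FA minus breeder, 8 dams each) with its 95% confidence interval for 27 folate genes (left) and 17 methionine cycle genes (right). Orange marks genes that were higher and blue genes that were lower at an unadjusted p of 0.05 or below, 5 and 1 on the left and 3 and 2 on the right, and black marks the rest.

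Genes that write histone methylation and genes that remove it both leaned down on the FA diet. Of 38 such enzymes, all past the filter, 32 had a negative log2 fold change. At an unadjusted p of 0.05 or below 14 were lower and 0 higher, or 36.8% where all genes had 5.03%, and the median was -0.25. DESeq2 called 2 of the 38 and the quasi-likelihood test 0. *Kmt2b*, a methyltransferase for histone H3, lay at 19.9, 28.6 and 42.5 CPM against 14.3, 18.8 and 38.3, a log2 fold change of -0.48 ± 0.19 (SE, adjusted p = 0.415). The diets overlapped, with FA dam 5 far above the other FA dams, 6 of which lay below the lowest breeder dam, and over the alternatives its log2 fold change ran from -0.73 to -0.24, the last without breeder dams 10, 11 and 12. *Nsd2* (-0.39) and *Dot1l* (-0.35), methyltransferases for histone H3 too, were lower in 7 and 6 FA dams than in any breeder dam. Of the 14 lower genes 6 were demethylases, *Kdm2a* (-0.23), *Kdm2b* (-0.46), *Kdm4a* (-0.38), *Kdm5b* (-0.44), *Kdm5c* (-0.26) and *Kdm6a* (-0.32). The sum over the list was 501, 561 and 743 CPM against 432, 468 and 602, with breeder dam 10 and FA dam 5 highest. Leaving out 1 library gave 10 to 20 lower members. Without the 4 muscle-rich libraries 4 of 38 were lower, where 3.55% of all genes were, and without breeder dams 10, 11 and 12 the count was 5 (median -0.17), where 2.4% of all genes were lower.

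ATP-dependent chromatin remodellers, which move nucleosomes, had 6 lower (22.2%, all genes 5.03%) and 0 higher among the 27 of 29 past the filter, and a median of -0.19. Without breeder dams 10, 11 and 12, 2 were lower (median -0.10), without the muscle-rich libraries 3, and without FA dam 5 there were 10. *Chd3* lay at 45.3, 64.2 and 131 CPM against 37.4, 41.5 and 80.2 (log2 fold change -0.63 ± 0.21, SE), *Chd4* had -0.30 and *Srcap* -0.94. For *Chd3* the diets overlapped, with FA dam 5 far above the other FA dams, and over the alternatives its log2 fold change ran from -0.86 to -0.22, the last without breeder dams 10, 11 and 12. In the list of DNA methylation, 18 of 20 genes passed the filter, 2 were lower (11.1%) and 0 higher, and the median was -0.14. The lower count was 1 without breeder dam 2 and 4 without breeder dam 4, where 2 were also higher, and the median was -0.04 without breeder dams 10, 11 and 12. *Tet3*, which oxidises methylated cytosine, lay at 15.4, 19.0 and 24.3 CPM against 11.3, 13.4 and 19.6, a log2 fold change of -0.44 ± 0.13 (SE, adjusted p = 0.273). DESeq2 called it, and 6 FA dams lay below the lowest breeder dam. *Uhrf2*, which reads DNA methylation, had -0.31. The methyltransferases *Dnmt1* and *Dnmt3a* had -0.23 and -0.12, with confidence intervals from -0.59 to 0.14 and from -0.48 to 0.23. Over the alternatives *Dnmt1* ran from -0.40 to -0.03 and *Dnmt3a* from -0.26 to 0.07.

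Subunits of oxidative phosphorylation encoded in the nucleus leaned up on the FA diet by small amounts. Of 58 subunits, all past the filter, 57 had a positive log2 fold change. At an unadjusted p of 0.05 or below 33 were higher and 0 lower, or 56.9% where all genes had 5.45%, and the median was 0.26. DESeq2 called 7 and the quasi-likelihood test 0. *Cox7b*, of cytochrome c oxidase, lay at 59.1, 70.2 and 82.3 CPM against 74.0, 88.9 and 111, a log2 fold change of 0.36 ± 0.10 (SE, adjusted p = 0.271). *Sdhb*, of succinate dehydrogenase, lay at 35.1, 42.9 and 46.9 CPM against 45.3, 50.2 and 65.0, and *Atp5f1b*, of the ATP synthase, at 163, 204 and 230 against 199, 259 and 275. The diets overlapped in all 3, with 6, 7 and 5 FA dams above the highest breeder dam. Leaving out 1 library gave 24 to 45 higher members. Without the 4 muscle-rich libraries 15 of 58 were higher (median 0.22), where 3.69% of all genes were, and without breeder dams 10, 11 and 12 there were 10 (median 0.16), where 2.29% of all genes were higher. The 13 genes of the mitochondrial genome were not analysed here.

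All 79 cytosolic ribosomal protein genes had a positive log2 fold change, between 0.04 and 0.36, with a median of 0.19. At an unadjusted p of 0.05 or below 13 were higher (16.5%, all genes 5.45%), with 2 without FA dam 1, 36 without breeder dam 4, 3 without the muscle-rich libraries and 0 without breeder dams 10, 11 and 12 (median 0.08). *Rpl32* lay at 164, 218 and 296 CPM against 236, 257 and 363, and *Rpl6* at 175, 210 and 236 against 208, 252 and 281. The diets overlapped in both. These genes have many near-identical copies, so part of their counts may belong to them.

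**Figure D3:**
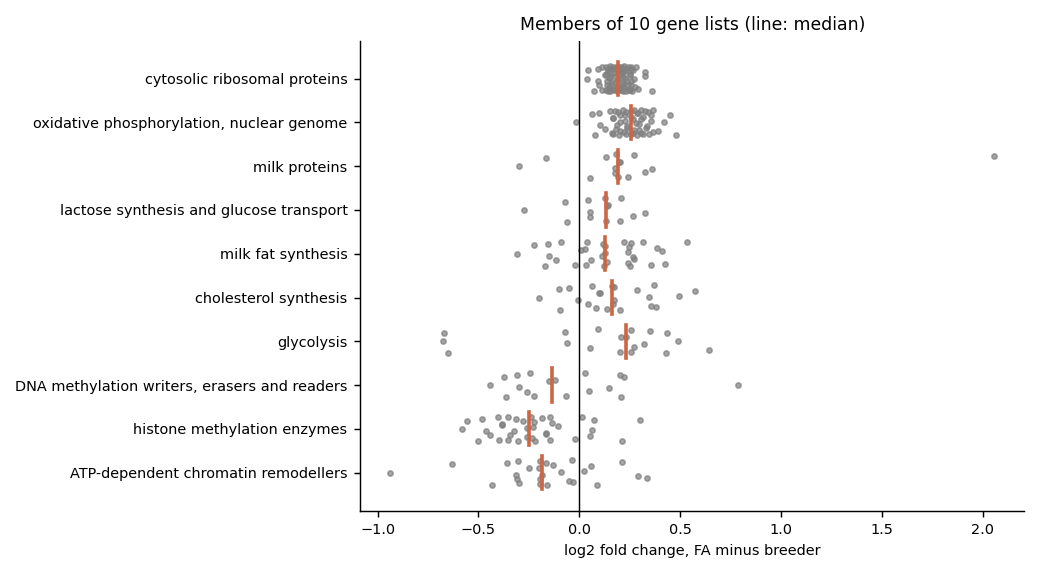
Log2 fold change (FA minus breeder) of each gene past the filter in 10 gene lists, with 1 grey point for each gene and a line at the list's median. The median is 0.26 for nuclear genes of oxidative phosphorylation, 0.19 for ribosomal proteins and -0.25 for histone methylation enzymes.

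These lists also differ in gene length. The median summed exon length was 3974.5 bases for oxidative phosphorylation, 2829 for ribosomal proteins, 10663.5 for histone methylation enzymes and 12104 for remodellers, where all genes tested had 6090.5. Over all genes, those of 1000 exon bases or fewer had a median log2 fold change of 0.14, with 10.3% higher and 2.12% lower at an unadjusted p of 0.05 or below, and those over 8000 had -0.06, with 3.07% and 7.61%. By dam, short genes deviated from their mean over the 16 dams by -0.10, -0.21 and -0.20 in breeder dams 10, 11 and 12, by 0.01 to 0.17 in the other breeder dams and by 0.04 to 0.21 in FA dams. The part of gene length, and of muscle in the 4 libraries above, in the lists' values was not tested. The letters CG within the 250 bases before the gene start in GRCm39 were counted as well. Their median was 9 in all genes, 9 in the 704 higher genes and 11 in the lower ones.

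**Figure D4:**
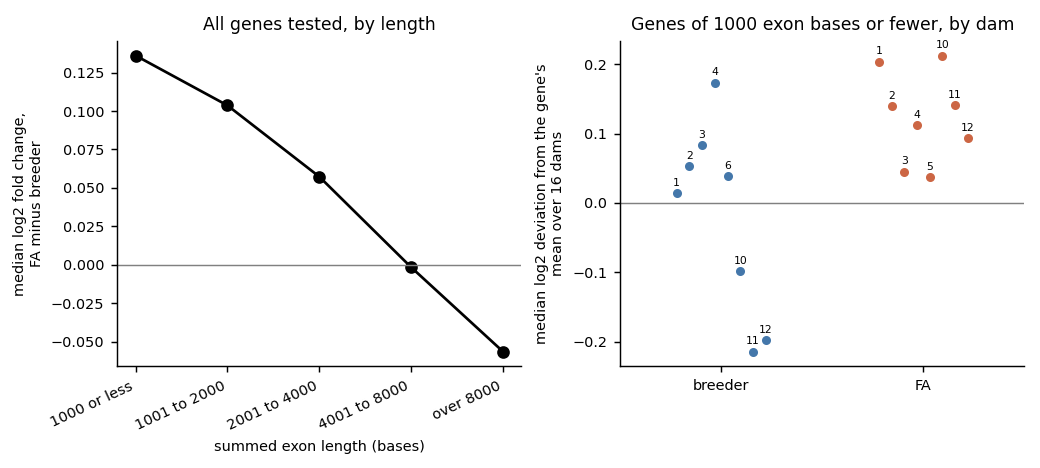
Median log2 fold change (FA minus breeder) of all genes tested by summed exon length (left), and the median log2 deviation of genes of 1000 exon bases or fewer from their mean over 16 dams, with 1 numbered point for each dam (right). The medians go from 0.14 in the shortest class to -0.06 in the longest, and breeder dams 10, 11 and 12 lie lowest at -0.10, -0.21 and -0.20.

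Milk protein genes leaned up by small amounts, and none passed the threshold. Of 15, 13 had a positive log2 fold change, 4 were higher at an unadjusted p of 0.05 or below (26.7%, all genes 5.45%) and the median was 0.19. The count was 1 without breeder dam 4, 7 without FA dam 3, 2 without the muscle-rich libraries and 0 without breeder dams 10, 11 and 12. *Csn3*, kappa casein, lay at 28812, 37871 and 40930 CPM on the breeder diet and at 31391, 43003 and 53335 on the FA diet, a log2 fold change of 0.27 ± 0.12 (SE, adjusted p = 0.451), and the diets overlapped. In bulk tissue, fewer cells of a type and less RNA per cell cannot be told apart. *Glycam1* (0.36), a mucin-like milk protein, and *Cel* (0.32), the bile salt-stimulated lipase of milk, were higher too. *Spp1*, osteopontin, had the largest log2 fold change at 2.06, but its median was 78.4 CPM on the breeder diet and 61.8 on the FA diet, and FA dam 3 lay at 2428 CPM. The Spp1 log2 fold change was 0.15 without that dam. *Wap* lay at 136833, 175080 and 228989 CPM against 116369, 203919 and 254387, and the lowest of all was FA dam 3. *Lalba*, the regulatory subunit of lactose synthase, had a log2 fold change of 0.05 with an interval from -0.28 to 0.38, and of the 14 genes of lactose synthesis and glucose transport 0 reached that level of p, or 2 without FA dam 3.

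Lipid genes leaned up. Of 33 genes of milk fat synthesis, 4 were higher and 0 lower at an unadjusted p of 0.05 or below, with a median of 0.13, or 12.1% higher where all genes had 5.45%. The higher count was 7 without FA dam 5 and 2 without breeder dams 10, 11 and 12. *Lpl*, which frees fatty acids from blood lipoproteins, lay at 1139, 1446 and 1968 CPM against 1589, 1903 and 2204, a log2 fold change of 0.41 ± 0.12 (SE, adjusted p = 0.276), and DESeq2 called it. *Fasn*, fatty acid synthase, lay at 1064, 2402 and 2967 CPM against 1970, 3276 and 5198, a log2 fold change of 0.53 ± 0.19 (SE). The diets overlapped in both, with 3 and 6 FA dams above the highest breeder dam. *Thrsp*, a regulator of lipid synthesis in the gland, had 0.43 and the fatty acid carrier *Fabp3* 0.24. In cholesterol synthesis, *Ebp* (0.35), *Fdps* (0.49) and *Nsdhl* (0.57) were higher among the 23 of 24 genes past the filter (13.0%), with a median of 0.16. Without breeder dam 1 and without the muscle-rich libraries 5 were higher, and without breeder dam 3 there were 2. The median was 0.07 without FA dam 3. Glycolysis had 3 of 19 higher and 3 lower (15.8% each), the lactate dehydrogenase *Ldha* (0.32) and *Tpi1* (0.35) among the first, and *Pfkfb2* and *Pfkfb3*, which set the level of fructose 2,6-bisphosphate (both -0.67), and the dehydrogenase *Gapdh* (-0.65) as the second. *Gapdh* lay at 1.71, 4.52 and 7.46 CPM against 1.60, 2.54 and 4.10, and the diets overlapped. Its reads may be shared with near-identical copies in the genome, which was not tested. The muscle-rich FA dam 4 had the highest glycolysis sum, 2612 CPM, where the highest breeder dam had 1778. Without it 1 was higher and the median went from 0.23 to 0.13, and without FA dam 12 there were 6. Without the 4 muscle-rich libraries 1 was higher and 5 were lower (median 0.12). The part of muscle in this list was not tested.

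The gland makes serotonin, which acts there on calcium and on PTHrP, encoded by *Pthlh*. Of 32 genes of serotonin and other monoamines, 12 passed the filter. The rate-limiting enzyme *Tph1* had -0.26 with an interval from -1.13 to 0.61, and *Maoa*, which breaks serotonin down, 0.22 with -0.31 to 0.76. The transporter *Slc6a4* had 3 counts over the 16 libraries and *Tph2* had 0. Among 23 of 29 genes of PTHrP and calcium, *Nucb2*, which binds calcium, lay at 220, 243 and 274 CPM against 248, 295 and 346 (log2 fold change 0.28 ± 0.10, SE). The diets overlapped, with 6 FA dams above the highest breeder dam. The calcium pump *Atp2a2* had -0.29. *Pthlh* had 0.30 with an interval from -0.21 to 0.81, and its receptor *Pth1r* -0.07 with -0.96 to 0.83.

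Signalling and growth lists stayed near the median of all genes. In the Notch pathway 2 of 27 genes were lower (7.41%, all genes 5.03%) and 0 higher, the receptor *Notch3* (-0.54) and *Lfng*, which adds sugars to Notch (-0.59). *Lfng* lay at 4.58, 8.72 and 13.1 CPM against 2.65, 5.51 and 7.11, and the diets overlapped. *Kazn*, of cell junctions, had -0.41, and *Mllt6*, a partner of chromatin regulators, -0.68. *Mllt6* was called by DESeq2, and 7 FA dams lay below the lowest breeder dam. Of 24 cell cycle genes, the inhibitor *Cdkn1b* (-0.44) and the thymidine kinase *Tk1* (-0.70) were lower (8.33%, all genes 5.03%). Of 18 clock genes, *Ciart* (0.77) was higher (5.56%, all genes 5.45%) and *Npas2* (-1.19), *Nr1d1* (-0.35) and *Clock* lower (16.7%, all genes 5.03%). The higher count was 0 without breeder dam 1 and 3 without breeder dam 6, and the lower count was 1 without breeder dam 3. The list's median of -0.10 was 0.05 without breeder dam 10. No gene of the lists for prolactin and STAT5, TGF-beta, claudins, amino acid transport, the unfolded protein response or immediate early genes reached an unadjusted p of 0.05, and their medians lay between -0.10 and 0.10. With 1 library left out, at most 3 did in any of these lists, the 3 being immediate early genes without FA dam 3. The insulin and IGF list had 2 higher of 19 (10.5%, all genes 5.45%, and 0 without breeder dam 10). The list of involution and STAT3 had 1 higher and 1 lower of 21 (4.76% each), near the share of all genes, and that of G protein alpha subunits 1 higher of 11 (9.09%, and 0 without breeder dam 3).

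Markers of blood and stroma and the macrophage and MHC class II list leaned up. Of the 5 haemoglobin and haem genes, 4 were higher at an unadjusted p of 0.05 or below, or 80.0% where all genes had 5.45%, with a median of 0.87, and DESeq2 called 2. They summed to 47.9, 56.0 and 100.1 CPM on the breeder diet and to 48.0, 115 and 173 on the FA diet, with *Hbb-bs* most abundant. The diets overlapped, and the near-identical copies *Hba-a1* and *Hba-a2* share reads. All 16 fibroblast and stroma markers had a positive log2 fold change, 4 were higher (25%) and the median was 0.34. Without FA dam 11, whose sum was 374 CPM where the other FA dams had 163 to 270, 1 was higher and the median was 0.17. Without breeder dams 10, 11 and 12, 2 were higher, and without FA dam 3 there were 6. *Lum*, a proteoglycan of collagen fibres, lay at 2.35, 3.07 and 5.32 CPM against 3.98, 4.82 and 7.66, with FA dam 11 highest. Macrophage and MHC class II markers had 4 of 16 higher (25%) and a median of 0.22, among them *Lyz2* (0.40) and *Cd74* (0.34). Without breeder dams 10, 11 and 12, 0 were higher and the median was 0.07.

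Of 10 myoepithelial markers 4 were higher (40%, all genes 5.45%), the smooth muscle actin *Acta2* (0.34) and the oxytocin receptor *Oxtr* (0.36) among them. The count was 2 without breeder dam 3 and 0 without breeder dams 10, 11 and 12, and the median of 0.21 was 0.12 without FA dam 5. Among 10 luminal markers the keratin *Krt8* was higher (0.27) and *Ehf* lower (10% each). In the list of nerve and Schwann cell markers, 6 genes passed the filter and *Sox10* was lower (-0.30), or 16.7% where all genes had 5.03%. *Sox10* lay at 74.0 to 112 CPM on the breeder diet, where the whole list summed to 86.6 to 132. Of the same list, *S100b* and *Ncmap* had 24 and 11 counts over the 16 libraries and *Nefl* and *Nefm* 0. Which cells the *Sox10* RNA came from was not tested. In the acute phase list 3 of 13 were higher (23.1%, all genes 5.45%) with a median of 0.39, which was 0.17 without FA dam 3 and 0.80 without breeder dam 3. Without breeder dams 10, 11 and 12, 0 were higher. *Lcn2* lay at 236, 293 and 585 CPM against 245, 537 and 806 and *Orm2* at 2.63, 5.45 and 9.72 against 3.96, 13.6 and 41.6, whose reads may be shared with *Orm1*. The diets overlapped in both. In the interferon list *Isg15* was the 1 of 22 that was higher (4.55% of them, all genes 5.45%), with a log2 fold change of 0.63 (0.37 without FA dam 3). That dam had 4.54 CPM of *Isg15*, and the list's median of 0.29 was 0.07 without it. Endothelial, adipocyte and B and plasma cell markers had no gene at that level, with medians of 0.14, -0.07 and -0.11. Without FA dam 5 the endothelial median was -0.01. The part of these cell types in the values of other genes was not tested.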

How the data were processed

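The deposited values are raw counts per Ensembl gene, made by the authors from paired reads trimmed with Trim Galore 0.4.4 and counted on GRCm39 with HISAT2 and HTSeq. The strand option and annotation release are not given in the sources used here, so reads of overlapping genes on opposite strands may be mixed. Each file holds 55379 genes, of which 54712 were matched to GENCODE vM39. In R 4.3.3, genes were filtered with filterByExpr of edgeR 4.0.16, which removed 42466 and left 12913, normalized with TMM and tested with the robust quasi-likelihood test, adjusted by Benjamini-Hochberg at an FDR of 10%. Fold changes are full group differences. DESeq2 1.42.0 and the likelihood ratio test were alternatives, as were RLE and upper quartile scaling, no filter, a filter of 1 CPM in 8 libraries, no robust estimation, the 20 most abundant genes left out, all 31 libraries, a block on dam number and each library left out. The method was tested on simulated data. Total counts and the share of the 20 most abundant genes were compared by exact permutation, two-sided.

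The common dispersion was 0.0949, a coefficient of variation of 0.308 between dams, and the median half-width of a 95% interval was 0.38 log2 units. The members and lists were chosen with earlier results of these data known. Named were the 12 higher and 12 lower genes of smallest p, list members at an unadjusted p of 0.05 or below, all folate and DNA methylation genes past the filter, the 10 genes with most counts, genes whose groups do not overlap, *Lfng*, *Kazn*, *Mllt6*, *Tph1*, *Maoa*, *Pthlh*, *Pth1r* and *Lalba*. Not all genes this rule names are described. Other genes named, such as those below the filter, were chosen after their values were seen.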

Additional observations from a re-analysis of the deposited data

Results flagged for a closer look

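Among 300 groups of 8 dams examined, each holding 1 gene's CPM, 1 list's summed CPM or 1 library measure, 30 had a highest or lowest dam far from the rest by Dixon's criterion. Chance gives about 1 in 20 groups if the values follow a normal distribution. This was not checked for CPM, and some groups share genes, so the number flagged is not weighed against that share. Of the 30, FA dam 3 gave 10 and FA dam 5 gave 6, and no cause was tested.

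FA dam 3 was highest for *Lrat* (50.2 CPM), *Spp1* (2428), *Orm2* (41.6) and *Isg15* (4.54), and lowest for *Wap* (116369). It was also highest for the sums of DNA methylation genes (237.7 CPM), monoamine genes (234.1), cell cycle genes (212.4) and interferon genes (212.3), and its share of the 20 most abundant genes was the lowest at 70.1%. FA dam 5 was highest among FA dams for *Celsr2* (20.5 CPM), *Kmt2b* (38.3), *Chd3* (80.2) and *Mllt6* (17.1), and lowest for *Fabp3* (3656) and *Ldha* (180.8). FA dam 4 was highest for *Uqcrc1* (81.5 CPM), FA dam 11 for *Lum* (7.66) and for the ribosomal RNA *Rn18s-rs5* (184787), and FA dam 10 had 0 CPM of *Npas2*.

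Among breeder dams, dam 3 was highest for *Tcn2* (154 CPM), *Lcn2* (585) and the sum of involution genes (1817). Dam 4 was highest for *Isg15* (2.8 CPM) and for the haemoglobin sum (100.1), dam 6 for *Lrat* (28.3) and dam 10 for *Zmym5* (34.1). Dam 10 was lowest for the sum of endoplasmic reticulum chaperones (1002.5 CPM). Dam 11 was highest for muscle markers (2617 CPM) and dam 12 for the Notch sum (219.1).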

How the results depend on the processing

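No gene passed the FDR of 10% in edgeR's quasi-likelihood test, with 704 higher and 650 lower genes at an unadjusted p of 0.05, nor with RLE or upper quartile scaling, the 20 most abundant genes left out, a filter of 1 CPM, no robust estimation or all 31 libraries. The likelihood ratio test called 28, DESeq2 123 and the test without a filter 8. Leaving out 1 library called 0 to 84, 84 without FA dam 5, 2 without breeder dam 6 and 0 in the other 14 fits. A block on the dam number, shared by 14 dams, called 68 genes, and the same 14 dams without a block, chosen after seeing the data, called 155. Same-numbered dams were correlated between -0.24 and 0.27, and the authors name no pairing.

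Genes higher at an unadjusted p of 0.05 numbered 1373 without a filter, 403 with all 31 libraries, 303 without breeder dams 10, 11 and 12, and 512 to 913 with 1 library left out. Lower genes numbered 2547, 1054 with the block, 1103 with the same dams unblocked, 318 without those 3 breeder dams, and 496 to 999 with 1 library left out (999 without FA dam 5). At an unadjusted p of 0.01 there were 881 without a filter, 172 with all 31 libraries, 627 with the block, 660 unblocked, 223 without the 4 muscle-rich libraries and 122 without breeder dams 10, 11 and 12. Leaving out 1 library gave 240 to 613, with 523 without breeder dam 4 and 613 without FA dam 5. Leaving out muscle-rich libraries or those breeder dams was chosen after seeing the data. The cause was not tested.

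The difference in the share of the 20 most abundant genes ran from 1.33 to 2.96 points with 1 library left out. Of 105 named genes, 102 kept their sign throughout. Many of them were named for a small p in these same libraries, which favours a kept sign, so the count is not read as support. The 3 that changed sign were named by other rules. The Dnmt3a log2 fold change was 0.0703 without the muscle-rich libraries. The Lalba log2 fold change was -0.0311 with the block on dam number and -0.0247 (without FA dam 2) to 0.148 with 1 library left out. The Pth1r log2 fold change was 0.000345 with the block, 0.0401 without the muscle-rich libraries and -0.308 to 0.0941 with 1 library left out. Of 41 lists, 1 had a median that moved by more than the list's SD between dams, muscle markers at -2.54 without the 4 libraries. With 1 library left out, the medians of 15 lists changed sign, among them cell cycle genes (0.10 to -0.08 without FA dam 3). Depth was not varied.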
